A study of Mus musculus with 4 samples.

Results

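The genes of the tight junction, the gap junction and apicobasal polarity were followed in mouse embryonic stem (ES) cells null for SOCS3, which dampens signalling by cytokine receptors, and in wildtype ES cells. The members were 39 genes, out of 18193 genes with a named probe set on the arrays. They were listed by symbol and chosen with earlier results of these data known. Each gene was represented by its brightest probe set, that with the highest mean over the 4 arrays. Expression had been measured on 2 arrays of SOCS3 null cells and 2 arrays of wildtype cells, all from total RNA. The labels give no clone, culture medium, passage, strain or mode of deletion, and name no allele other than the SOCS3 null state. Whether both arrays of a genotype stem from different cultures is not recorded, so the p-values rest on a spread between arrays that could be technical alone.

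Tight junctions seal the space between neighbouring epithelial cells. Claudins and occludin form their strands in the membrane, and the ZO proteins and cingulin tie the strands to actin. Gap junctions are channels of connexins that let small molecules pass from cell to cell, and mouse ES cells are known to be coupled through them. The PAR, Crumbs and Scribble complexes hold the apical and basolateral sides of an epithelial cell apart; in the early embryo they take part in the polarisation of the trophectoderm and of the primitive endoderm epithelium.

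The deposited values are intensities on a linear scale. They were taken as already on a common scale between arrays because the array medians were close. Changes are SOCS3 null minus wildtype on log2(intensity + 16), where the added 16 makes changes of dim genes look smaller than they are, and are given with their standard error (SE). A gene was called at an adjusted p under 0.05 (limma, Benjamini-Hochberg over 12732 genes). Array medians ran from 15.8 to 16.05 and log2 values correlated across probe sets with r of 0.988 between the SOCS3 null arrays, 0.995 between the wildtype arrays and 0.948 to 0.957 across genotypes. Socs3 itself was at 19.3 and 12.9 on the SOCS3 null arrays, against 3024 and 1884 on the wildtype arrays. The 10 ES cell markers summed to 68355 and 64793 in SOCS3 null cells, against 80937 and 81130 in wildtype cells, and 0 were below the median on every array. All 10 had negative changes, with a median of -0.39; for 8 both SOCS3 null arrays were below both wildtype arrays, and 2, Sox2 and Fgf4, were called lower. Pou5f1 had the change nearest 0 (-0.01), at 11567 and 10524 in SOCS3 null cells and 10524 and 11675 in wildtype cells. Zfp42 had the largest of these changes (-1.70, limma adjusted p = 0.0691), at 3502 and 1509 in SOCS3 null cells and 7657 and 7324 in wildtype cells. Sox2, Fgf4 and Zfp42 were chosen after their values were seen. Of 14 primitive endoderm markers 13 were tested and 11 were called higher in SOCS3 null cells, and the list summed to 33923 and 34444 there, against 791 and 821 in wildtype cells; Hnf4a, Ttr and Afp were below the median on every array. Fibroblast and feeder markers summed to 4878 and 2991 in SOCS3 null cells and to 2575 and 4317 in wildtype cells, so they differed between arrays of the same genotype. Of the 10 tested, 9 had positive changes, the median was 0.28 and 0 were called. For 4 both SOCS3 null arrays were above both wildtype arrays, and for 0 below. Trophoblast markers summed to 1033 and 1659 in SOCS3 null cells and 1165 and 1393 in wildtype cells. Of these Tfap2c was called lower (-1.11), while 5 of the 7 tested had positive changes, the median was 0.90, and Plet1 (2.61) and Eomes (0.94) were called higher; Cdx2 and Elf5 were below the median on every array. Plet1 was at 346 and 707 in SOCS3 null cells and 61.3 and 74.7 in wildtype cells. Eomes was chosen after its values were seen. Markers of blood and endothelium summed to 604 and 512 in SOCS3 null cells and 378 and 367 in wildtype cells, and 3 of the 6 tested were called higher. The part of these marker differences in the results that follow was not tested. In bulk RNA, fewer cells of a type and less RNA per cell cannot be told apart.

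The members moved in both directions. The connexin gene Gjb5, the adhesion receptor Cxadr, the plaque protein gene Tjp1 and the connexin gene Gja1 were higher in SOCS3 null cells, and the transcription factor gene Grhl2, the adhesion gene Epcam and the plaque protein genes Cgn and Tjp3 were lower. Changes of the called genes ran from a log2 change of -2.02 for Grhl2 to 2.26 for Gjb5. None of the claudins, of the PAR, Crumbs or Scribble members, or of occludin and its relatives was called. Of the 39 members, 31 passed the filter on dim probe sets and were tested. Of these, 8 were called, 4 higher and 4 lower, or 25.8%, where 22.7% of all genes tested were called, 13.1% higher and 9.55% lower. The share of members called was thus close to that of all genes. Their median log2 change was 0.16, beside -0.00 over all genes tested. The 2 SOCS3 null arrays lay above both wildtype arrays for 13 members and below both for 10; the groups overlapped for 8. Over all genes tested, 65.8% had groups that did not overlap. With any 1 of the 4 arrays left out 0 members and 0 genes in all were called by limma, and 7 to 16 of the 31 members had an unadjusted p under 0.05, beside 2928 to 4733 of all 12732 genes. Without the filter on dim probe sets 4 members were called (Gjb5 higher and Epcam, Grhl2 and Tjp3 lower), where 8.96% of all genes were called.

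**Figure D1:**
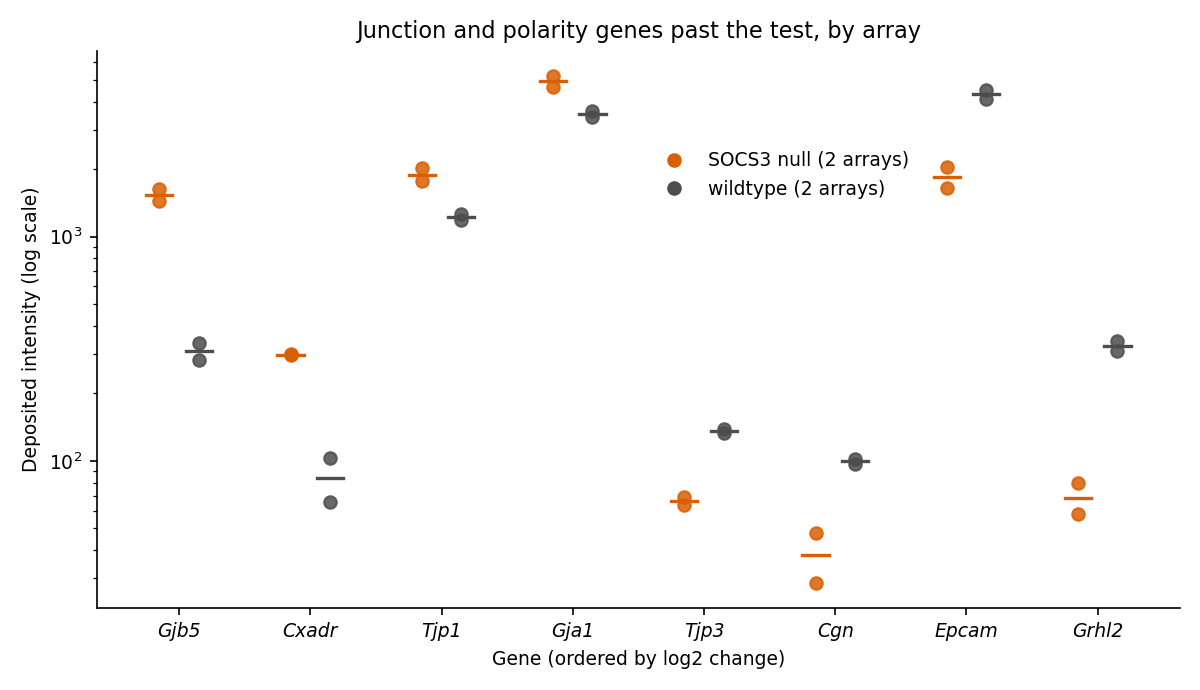
Deposited intensity (log axis) of the 8 called members on each array, SOCS3 null arrays in orange at the left of each pair and wildtype arrays in grey at the right; short bars are group means. The 2 arrays of one genotype lie on the same side of both arrays of the other for all 8 genes, with the widest gap for Gjb5 among those higher in SOCS3 null cells and for Grhl2 among those lower.

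To show the DNA beside the values, the windows from 250 bases before to 50 bases after annotated start sites (RefSeq, GRCm38.p6) were searched on both strands for 3 motifs. They were AACCGG, the half-site bound by grainyhead-like factors such as GRHL2, CACCTG, the E-box bound by Snail and ZEB repressors, and AGATAA, a form of the GATA site. Of the 39 members 31 had an entry in the promoter table, and of the 8 called members 6 had one. The windows below belong to the 3 called genes with an entry that were lower in SOCS3 null cells and, for contrast, to the member with the largest increase. Capitals mark matches to any of the 3 motifs on either strand. All are printed 5′ to 3′ on the strand of the gene.
Epcam, chr17:87635729-87636028, plus strand: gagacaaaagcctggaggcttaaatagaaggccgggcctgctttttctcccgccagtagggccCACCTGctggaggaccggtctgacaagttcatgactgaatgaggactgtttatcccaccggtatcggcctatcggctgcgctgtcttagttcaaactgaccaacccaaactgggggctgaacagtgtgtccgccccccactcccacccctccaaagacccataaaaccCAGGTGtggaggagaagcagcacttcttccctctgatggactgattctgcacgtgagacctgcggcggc
Cgn, chr3:94786433-94786732, minus strand: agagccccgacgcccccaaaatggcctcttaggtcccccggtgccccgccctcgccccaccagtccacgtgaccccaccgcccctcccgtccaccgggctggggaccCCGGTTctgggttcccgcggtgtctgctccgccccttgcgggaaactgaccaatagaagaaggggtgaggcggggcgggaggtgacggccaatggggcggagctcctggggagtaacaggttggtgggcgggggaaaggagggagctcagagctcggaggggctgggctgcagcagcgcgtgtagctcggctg
Tjp3, chr10:81291532-81291831, minus strand: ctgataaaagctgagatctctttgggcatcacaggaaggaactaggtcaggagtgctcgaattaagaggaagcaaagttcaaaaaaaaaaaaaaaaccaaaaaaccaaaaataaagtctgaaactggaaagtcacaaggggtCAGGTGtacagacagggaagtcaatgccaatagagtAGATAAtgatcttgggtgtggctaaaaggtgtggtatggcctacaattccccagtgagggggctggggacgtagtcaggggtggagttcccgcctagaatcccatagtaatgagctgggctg
Tjp3, start site downstream, chr10:81291218-81291517, minus strand: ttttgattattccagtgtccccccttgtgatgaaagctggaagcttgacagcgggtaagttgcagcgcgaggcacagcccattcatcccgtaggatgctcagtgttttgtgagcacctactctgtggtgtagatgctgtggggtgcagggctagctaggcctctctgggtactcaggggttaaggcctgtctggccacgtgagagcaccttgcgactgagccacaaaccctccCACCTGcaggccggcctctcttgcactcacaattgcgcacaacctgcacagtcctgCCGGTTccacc
Gjb5, chr4:127358115-127358414, minus strand: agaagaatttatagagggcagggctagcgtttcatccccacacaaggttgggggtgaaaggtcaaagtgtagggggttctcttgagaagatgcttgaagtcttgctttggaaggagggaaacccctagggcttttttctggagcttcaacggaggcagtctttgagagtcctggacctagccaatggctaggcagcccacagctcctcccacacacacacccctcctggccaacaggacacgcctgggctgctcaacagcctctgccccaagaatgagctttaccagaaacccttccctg

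In the Epcam window the E-box stood at -187, and its reverse complement CAGGTG at -19, counted from the start site to the leftmost base of the match. Cgn had the reverse complement of the grainyhead half-site, CCGGTT, at -143. The upstream Tjp3 window held CAGGTG at -108 and AGATAA at -72, and the downstream one CACCTG at -17 and CCGGTT at 40. Gjb5 and Tjp1 had none of the 3 motifs in these windows, and Gja1 had the reverse complement of the GATA site, TTATCT, at -135. No match overlapped another in the windows printed. Over all the members' windows, 21 of 50 held the E-box, or 42%, beside 20.2% of the 32851 windows of all genes. Among the called members only Epcam and Tjp3 held it. The other members with it, such as Crb3, Pard3 and Cldn4, were not called. The grainyhead half-site was in 6 of 50 member windows, or 12%, beside 6.83% of all windows, and its full form AACCGGTT in 0 of 50, beside 0.146% of all. Besides Cgn and Tjp3, the half-site was in windows of Cldn7, Cldn14, Ocln and Pard6a, none of which was called. The GATA site was in 5 of 50, or 10%, beside 11.2% of all. Several windows can belong to 1 gene, so windows are not independent, and AACCGGTT contains AACCGG on both strands. A match is a run of letters and not evidence of binding.

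Grhl2 and Epcam had the largest decreases among the members by size of the log2 change. Grhl2 encodes a grainyhead-like transcription factor that, in mouse epithelia, activates junction genes including claudins. Its brightest probe set was at 57.8 and 79.5 on the SOCS3 null arrays, against 342 and 308 on the wildtype arrays. Both SOCS3 null arrays were far below both wildtype arrays. The log2 change was -2.02 (SE 0.16, limma adjusted p = 0.00846), with intensities in SOCS3 null cells at 0.211 of those in wildtype cells. Of its other probe sets, one changed by -0.35 and was not called, with 21.9 and 27.3 in SOCS3 null cells and 28.2 and 44.4 in wildtype cells, and the remaining 2 were below the filter. As the mean of its tested probe sets, Grhl2 changed by -1.18 and was still called.

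Epcam encodes a homophilic adhesion molecule of epithelia and of ES cells that binds claudin-7 and stabilises it in mouse and human epithelium. Its intensity was 1653 and 2054 on the SOCS3 null arrays, against 4526 and 4133 on the wildtype arrays. The SOCS3 null values were lower on both arrays, at 0.428 of the wildtype mean, and the log2 change was -1.22 (SE 0.14, limma adjusted p = 0.0145). A second, dimmer probe set of Epcam changed by -0.40 and did not pass over all probe sets (limma adjusted p = 0.0562). Cldn7, whose product is the partner of EpCAM, was at 357 and 502 in SOCS3 null cells and at 273 and 311 in wildtype cells. Its groups did not overlap, but the change of 0.51 did not pass (95% interval -0.04 to 1.06, limma adjusted p = 0.147).

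In the tight junction plaque, the 3 members went different ways. Tjp1, which encodes ZO-1, the scaffold that links claudins to actin, was at 2015 and 1764 on the SOCS3 null arrays and at 1264 and 1182 on the wildtype arrays. It was higher by 0.62 (SE 0.11, limma adjusted p = 0.031), and its groups did not overlap. Tjp3, which encodes the related scaffold ZO-3, was at 63.9 and 69.2 on the SOCS3 null arrays and at 139 and 133 on the wildtype arrays. The SOCS3 null mean was 0.490 of the wildtype mean, a log2 change of -0.88 (SE 0.08, limma adjusted p = 0.0104), with little spread in either group. Cgn, which encodes cingulin, an adaptor between ZO proteins, myosin and RhoA regulators, was at 28.7 and 47.7 in SOCS3 null cells, against 97.0 and 102 in wildtype cells. Its change was -1.11 (SE 0.20, limma adjusted p = 0.0327), and the SOCS3 null arrays differed from each other more than the wildtype arrays did.

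Among the membrane proteins of the junction, Cxadr was called. It encodes CAR, an immunoglobulin-fold adhesion molecule that serves as the receptor of coxsackievirus and adenovirus. Its intensity was 300.1 and 296 on the SOCS3 null arrays, against 103 and 65.3 on the wildtype arrays. The SOCS3 null arrays were nearly equal and lay above both wildtype arrays, with a log2 change of 1.68 (SE 0.21, limma adjusted p = 0.0167). All 4 of its probe sets that were tested were called higher, by 0.58 to 1.68, and the fifth was below the filter. F11r, which encodes the junctional adhesion molecule JAM-A, was at 272 and 336 in SOCS3 null cells and 236 and 257 in wildtype cells, a change of 0.28 that did not pass (95% interval -0.10 to 0.65). Ocln, the gene of occludin, was near the array median, at 18.0 and 17.2 in SOCS3 null cells and 18.8 and 19.1 in wildtype cells, and changed by -0.05 (95% interval -0.27 to 0.16). Marveld2, which encodes tricellulin, the occludin relative at corners where cells meet, was at 7.65 and 24.6 in SOCS3 null cells and 11.2 and 12.2 in wildtype cells. Its SOCS3 null arrays lay on either side of both wildtype arrays, and its 95% interval of -0.65 to 0.98 was the widest among the members that were not called.

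Claudins set which ions and solutes a tight junction lets through, and the 16 claudin members were either dim or not called. Of these, 8 lay below the filter: Cldn1, Cldn2, Cldn5, Cldn10, Cldn11, Cldn18, Cldn19 and Cldn23, with intensities from 5.36 to 13.6 on the 4 arrays. Their values lie below the array medians, and their changes could not be read at this signal. Fitted without the filter, they changed by -0.33 (Cldn5) to 0.08 (Cldn19) and none was called. Of the 8 that were tested 0 were called and 2 had an unadjusted p under 0.05, Cldn3 and Cldn6, beside 4905 of the 12732 genes tested. Their median log2 change was 0.05.

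Cldn6 encodes a claudin of early embryonic epithelia and pluripotent cells. It was at 104 and 146 in SOCS3 null cells, against 201 and 254 in wildtype cells. The SOCS3 null arrays were both below the wildtype arrays, by a log2 change of -0.79 (SE 0.21), and the limma adjusted p was 0.069. Cldn9, its direct neighbour in the gene order of the RefSeq table and a close relative, was at 30.9 and 40.2 in SOCS3 null cells and 40.4 and 30.9 in wildtype cells, so its groups overlapped and its change was -0.00 (95% interval -0.43 to 0.43). Cldn3, a sealing claudin and a receptor of Clostridium enterotoxin, was at 34.9 and 46.5 in SOCS3 null cells and 74.7 and 66.5 in wildtype cells. Its change of -0.62 missed the threshold (SE 0.14, limma adjusted p = 0.0518), while all 4 of its probe sets had negative changes, from -0.62 to -0.33. The probe sets at both ends of this range, of which that at -0.62 stands for the gene, are _x_at probe sets. These may also match other transcripts. Cldn3 passed in 4 of the 11 alternatives that kept all arrays, and Cldn6 in 2. Cldn4, the neighbour of Cldn3 and likewise an enterotoxin receptor, was at 751 and 811 in SOCS3 null cells and 630.4 and 764 in wildtype cells, with overlapping groups and a change of 0.17 (95% interval -0.19 to 0.53).

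The remaining claudins tested were Cldn12, Cldn14 and Cldn15. Cldn12, a claudin that lacks the usual PDZ-binding end, was at 386 and 406 in SOCS3 null cells and 365 and 281 in wildtype cells, a change of 0.29 (95% interval -0.13 to 0.71). Its second probe set changed by 0.58, with an adjusted p of 0.0946 over all probe sets (limma). Cldn14 and Cldn15 were near the array median on all arrays or below it, with changes of -0.01 and 0.10.

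None of the polarity complex members was called, with changes from -0.61 for Crb3 to 0.51 for Prkcz. These 2 changes were larger in size than the called change of Gja1 (0.49). The PAR complex joins the scaffold PAR3, the adaptor PAR6 and atypical protein kinase C, which phosphorylates basolateral proteins and keeps them off the apical membrane. All 5 of its genes among the members had positive changes, with a median of 0.31 and a range from 0.22 for Pard3 to 0.51 for Prkcz. Pard6g, a further PAR6 gene outside the members, was called higher and is given below. Prkci, which encodes the iota kinase isoform, was at 3686 and 3616 in SOCS3 null cells and 3183 and 2954 in wildtype cells. Its groups did not overlap and the change was 0.25 (SE 0.08, 95% interval 0.01 to 0.49, limma adjusted p = 0.118). A second probe set of Prkci went the other way with -0.46 and was not called. Prkcz, which encodes the zeta isoform, was at 208 and 289 in SOCS3 null cells, against 176 and 158 in wildtype cells (limma adjusted p = 0.131). Pard3 was at 174 and 163 in SOCS3 null cells and 138 and 146 in wildtype cells, and all 4 of its probe sets had positive changes, from 0.15 to 0.48. Pard6a, at 144 and 123 in SOCS3 null cells and 112 and 96.2 in wildtype cells, changed by 0.31. Pard6b overlapped between the genotypes, with 118 and 189 in SOCS3 null cells and 121 and 93.5 in wildtype cells.

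Crb3, the Crumbs protein of epithelia, which marks the apical membrane, was at 83.0 and 81.0 in SOCS3 null cells, against 158 and 113 in wildtype cells. The wildtype arrays were apart from each other but both above the SOCS3 null arrays, and the change of -0.61 did not pass (SE 0.17, limma adjusted p = 0.0824). Its other probe sets, with less spread between wildtype arrays, changed by -0.56 and -0.41 and were both called over all probe sets (limma adjusted p = 0.0288 and 0.0436). As the mean of its probe sets Crb3 was called lower. Mpp5, which encodes PALS1, the adaptor that binds CRB3, was at 137 and 162 in SOCS3 null cells and 169 and 151 in wildtype cells, with overlapping groups and a change of -0.09 (95% interval -0.43 to 0.25). Its 3 probe sets had changes of both signs.

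The Scribble complex opposes the PAR complex from the basolateral side. Llgl1, a Lethal giant larvae homologue that aPKC phosphorylates, was at 358 and 318 in SOCS3 null cells and 409 and 386 in wildtype cells, a change of -0.22. Its relative Llgl2 was at 371 and 463 in SOCS3 null cells and 363 and 371 in wildtype cells, with a change of 0.17. Scrib was at 329.9 on both SOCS3 null arrays and at 292 and 309 on the wildtype arrays, a change of 0.13 (95% interval -0.10 to 0.35). Dlg1, a membrane-associated guanylate kinase scaffold, was at 775 and 790.1 in SOCS3 null cells, against 666 and 566 in wildtype cells. Its groups did not overlap and its change of 0.34 did not pass (95% interval 0.03 to 0.65, limma adjusted p = 0.109). Its other probe sets changed by -0.01 and -0.09. All 4 genes had 95% intervals within -0.50 to 0.65.

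**Figure D2:**
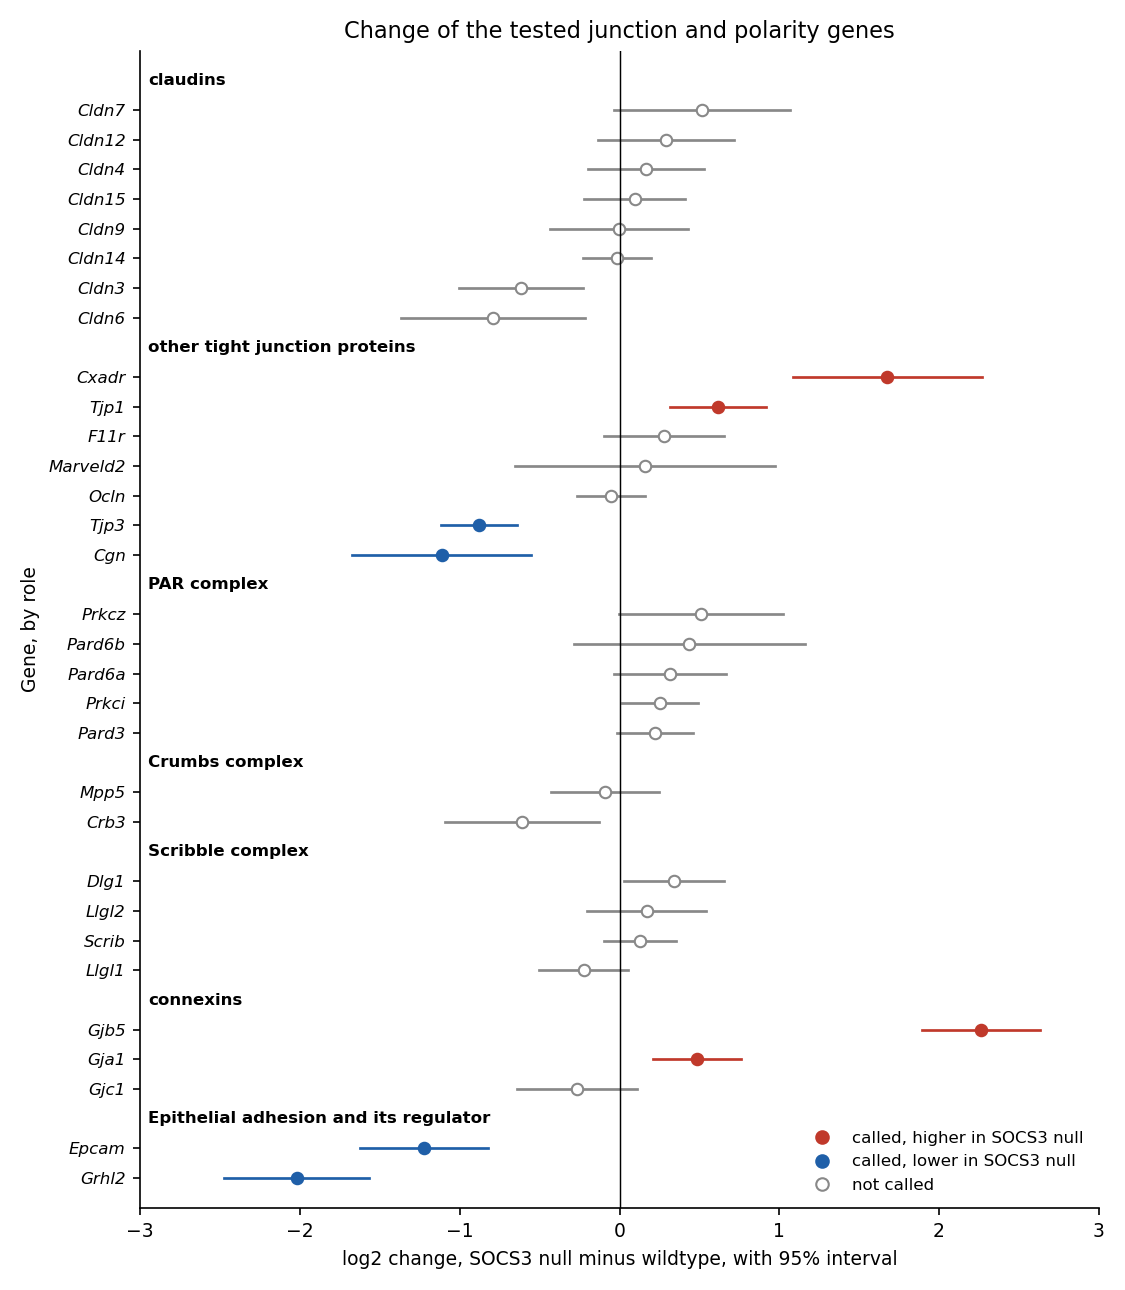
Change of the 31 members tested, as SOCS3 null minus wildtype on log2(intensity + 16), by role; points are fitted changes, lines their 95% intervals (limma), and filled points were called. Called genes stand at both ends, from -2.02 for Grhl2 to 2.26 for Gjb5, and none of the claudins or polarity genes is filled.

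Of the gap junction members, 2 of 3 were called. Gjb5, which encodes a beta connexin of skin and of the trophoblast lineage in mouse, was at 1635 and 1440.0 on the SOCS3 null arrays, against 335 and 281 on the wildtype arrays. All SOCS3 null values were above all wildtype values, with a mean 4.99 times as high and a log2 change of 2.26 (SE 0.13, limma adjusted p = 0.00593). It has 1 probe set, which passed in all 11 alternatives that kept the 4 arrays. Of the further connexin genes, Gja4, which encodes connexin 37, a vascular and ovarian connexin, was at 38.8 and 30.8 in SOCS3 null cells and 15.1 and 16.6 in wildtype cells, and was called higher by 0.67 (SE 0.11, limma adjusted p = 0.0296).

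Gja1 encodes connexin 43, the connexin most studied in ES cells. Its brightest probe set was at 4674 and 5205 in SOCS3 null cells and at 3624 and 3408 in wildtype cells. The groups did not overlap and the change was 0.49 (SE 0.10, limma adjusted p = 0.0419), 1.40 times the wildtype mean. All 6 of its probe sets had positive changes, from 0.17 to 0.77, and 2 were called. Another probe set, at 3411 and 3453 in SOCS3 null cells and 1820.3 and 2219 in wildtype cells, was one of them. The brightest was the other, only just under the threshold (limma adjusted p = 0.0499996 over all probe sets). It is an _x_at probe set, which may also match other transcripts. A further probe set overlapped between the genotypes, at 720 and 521 in SOCS3 null cells and 478 and 613 in wildtype cells. Gja1 passed in 7 of the 11 alternatives with all arrays, and Tjp1 in 9. Gjc1, which encodes connexin 45, was at 491 and 538 in SOCS3 null cells, against 687 and 562 in wildtype cells. Its groups did not overlap, and its change of -0.27 did not pass (95% interval -0.64 to 0.11, limma adjusted p = 0.237). Its second probe set changed by -0.41 and was not called.

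The separate probe sets of a gene gave a further view of the same arrays. The members had 79 probe sets, of which 61 were tested and 14 called, 8 higher and 6 lower, where 15.9% of all probe sets tested were called. Called probe sets of a gene all went the same way. Genes whose tested probe sets were partly called were Crb3, Gja1, Epcam and Grhl2. Signs differed between the probe sets of Prkci, Mpp5 and Dlg1, none of which was called.

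**Figure D3:**
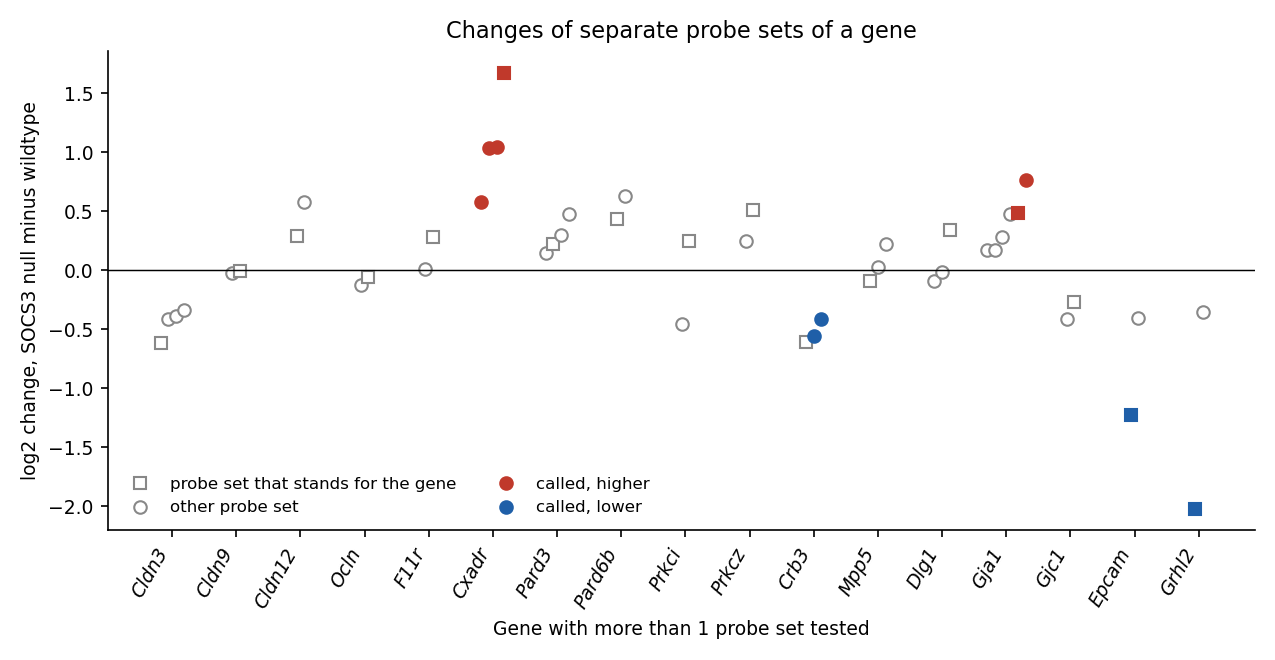
Change of each tested probe set (SOCS3 null minus wildtype on the log2 scale) for members with more than 1 probe set tested; squares are the probe sets that stand for the gene and filled symbols were called over all probe sets. The 4 probe sets of Cxadr are all called higher, while 2 of the 3 of Crb3 are called lower and the one that stands for the gene is open.

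Further genes of the same structures were taken from 5 lists by function, 99 genes in all, of which 81 had a named probe set and 65 were tested. Of these, 26 were called, or 40% beside the 22.7% of all genes, with 19 higher and 7 lower in SOCS3 null cells and a median change of 0.20. Without the filter 17 of the 81 were called, where 8.96% of all 18193 genes were called. The lists were chosen with earlier results of these data known, and no test was run over them. Their shares therefore describe the listed genes only.

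Of 22 further genes of the tight junction membrane and plaque, 7 were higher, 2 lower and 13 not called. Amot encodes angiomotin, a junction scaffold that binds the PATJ and YAP proteins. It was at 1051 and 1142 in SOCS3 null cells and at 90.9 and 94.5 in wildtype cells, and was higher by 3.35 (SE 0.09, limma adjusted p = 0.00357), more than any member. Its relative Amotl2 was at 603 and 666 in SOCS3 null cells and at 115 and 132 in wildtype cells, a change of 2.22. Esam, an immunoglobulin-fold adhesion molecule best known from endothelial junctions, was at 256 and 241 in SOCS3 null cells, against 35.2 and 37.5 in wildtype cells, a change of 2.34. The endothelial cadherin Cdh5 was at 27.6 and 27.6 in SOCS3 null cells and 6.61 and 5.17 in wildtype cells (chosen after its values were seen). Tek was at 54.6 and 55.2 in SOCS3 null cells and 34.7 and 29.5 in wildtype cells. Cd68 was at 266 and 195 in SOCS3 null cells and 101 and 90.4 in wildtype cells. Cdh5, Tek and Cd68 were all called higher. Pecam1, the brightest marker of this list, was at 224 and 203 in SOCS3 null cells and 203 and 210 in wildtype cells. Its groups overlapped and its change of 0.04 was not called. Of the 7 blood and endothelial markers, 3 were below the median on every array, Kdr, Ptprc and Hbb-bh1. The part of such cells in the change of Esam was not tested. Rab13, a small GTPase of junction traffic, rose by 0.93. The 2 that were lower were Magi1 (-1.05), a scaffold, and Arhgef18 (-0.85), an activator of RhoA at junctions, both chosen after their values were seen.

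Of 23 further polarity genes 5 were higher, 3 lower and 15 not called. Pard6g, the third PAR6 gene, was at 366 and 426 in SOCS3 null cells, against 186 and 176 in wildtype cells, and rose by 1.06 (SE 0.11, limma adjusted p = 0.0115). Slc9a3r1, which encodes the apical scaffold NHERF1, rose by 0.80. Tiam1, a Rac activator that binds PAR3, fell by 1.12 on the log2 scale and Dlg3, a relative of Dlg1, by 0.70. The third that fell, Ezr, the gene of ezrin, changed by -0.42 and was chosen after its value was seen. Among 6 further connexins and pannexins, Gja4 and the pannexin gene Panx1 were higher and 4 were not called. The single further claudin gene tested, Cldnd1, named after its value was seen, was not called at 0.57.

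Of 13 genes tested that are linked to EpCAM and GRHL2, 5 were higher, 2 lower and 6 not called. The 2 lower genes were Esrp1, which encodes an epithelial splicing regulator, and Rab25, which encodes an epithelial GTPase of apical recycling. Esrp1 was at 108 and 98.3 in SOCS3 null cells, against 376 and 450.1 in wildtype cells, a change of -1.84 (SE 0.12, limma adjusted p = 0.00721). Rab25 was at 22.6 and 21.1 in SOCS3 null cells, against 122 and 93.1 in wildtype cells, a change of -1.70 (SE 0.14, limma adjusted p = 0.00905). Both thus changed in the direction of Grhl2. St14, which encodes matriptase, a protease that cleaves EpCAM in human and mouse epithelium, went the other way. It was at 441 and 453 in SOCS3 null cells and 180.4 and 170.4 in wildtype cells, a change of 1.27 (SE 0.08, limma adjusted p = 0.00665). Elf3, an epithelial ETS factor gene, was at 470.5 and 401 in SOCS3 null cells and 178 and 175 in wildtype cells, and rose by 1.23. Esrp2, the relative of Esrp1, was also called higher, by 0.59, as were Prss8 (0.95) and Cd9 (0.54). The grainyhead-like relatives Grhl1 and Grhl3 were not called, with changes of -0.90 (limma adjusted p = 0.0531) and -0.41. Cdh1, the gene of E-cadherin, on which tight junctions depend in most epithelia, was at 1259 and 1447 in SOCS3 null cells and 1528 and 1458 in wildtype cells, a change of -0.14 (95% interval -0.44 to 0.15). Esrp2, Prss8, Cd9, Grhl1, Grhl3 and Cdh1 were chosen after their values were seen.

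**Figure D4:**
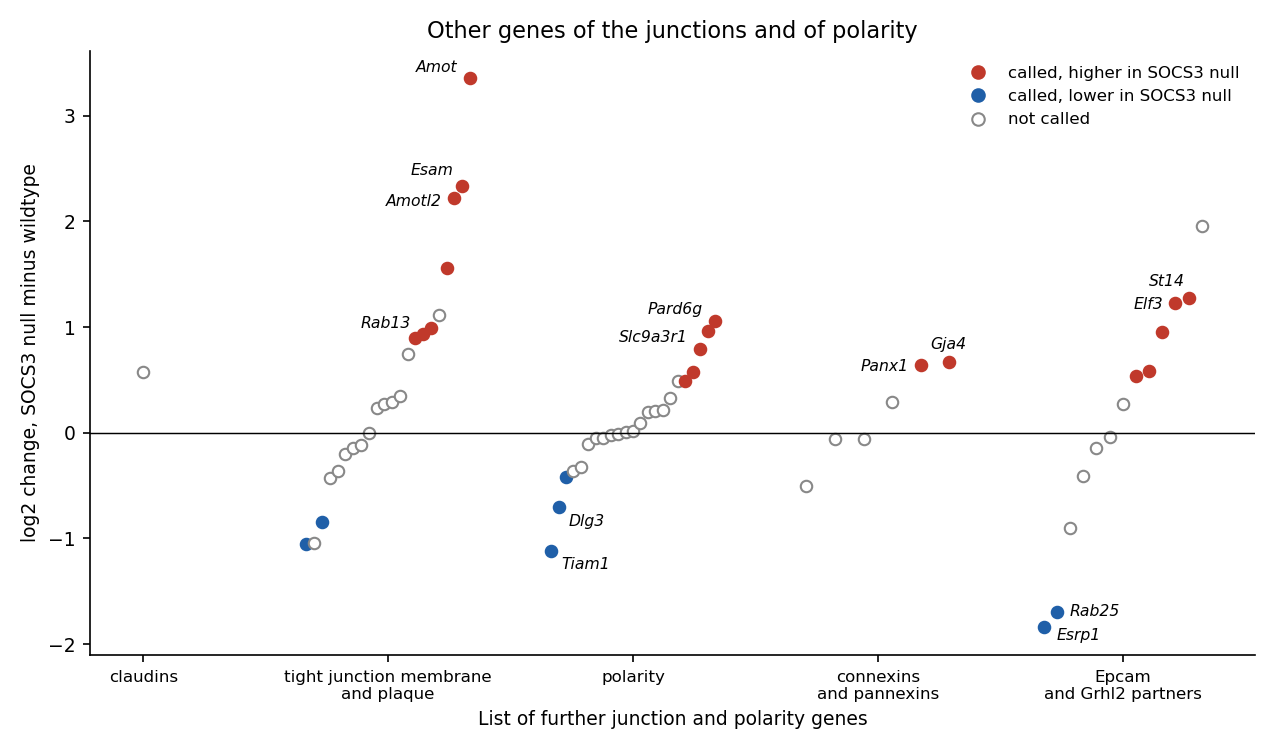
Change of 65 further junction and polarity genes tested (SOCS3 null minus wildtype on the log2 scale), in 5 lists and ordered by change within each; filled points were called. Amot is highest at 3.35 and Esrp1 lowest at -1.84, and genes linked to EpCAM and GRHL2 are called in both directions.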

How the data were processed

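Total RNA from mouse ES cells was measured on 4 arrays, 2 per genotype, grouped by the submitters' labels. The deposited table gives a linear intensity for each of 45101 probe sets. The authors' summarisation and normalization were not given in the sources used here. Medians of the 4 arrays differed by at most 0.012 on the log2(intensity + 16) scale, and the values were used without further scaling. The number of arrays limits the precision, and no detection calls were used.

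The 64 control probe sets were left out. Gene names came from the platform annotation (34945 probe sets with 1 symbol, 932 with several, 9160 with none), of which 34741 were found in a RefSeq table of GRCm38.p6 with 0 symbols changed. The brightest probe set stood for a gene. Of the probe sets, 27022 reached the 40th percentile of mean log2 values and were tested, giving 12732 genes. Each was fitted with limma 3.58.1 in R 4.3.3 (lmFit and eBayes, genotype as the only term, two-sided), and the procedure was tested on simulated data. Suffixes such as _x_at mark probe sets that may also match other transcripts.

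The members and lists were chosen with earlier results of these data known. Named genes were all members, Socs3, up to 4 called genes with the smallest p per further list, the paralogs next to a member, and some markers. The markers named were among the 3 brightest of their list or at or under the array median, but not all such markers are named. Others are marked as chosen after their values were seen. No test was run over the lists, which are described by counts. Promoter windows are RefSeq's. Replicate numbers are shared by both genotypes, but nothing in the labels says that they pair arrays. Each result was recomputed with other pseudocounts (1 or 64), after quantile normalization or centring on array medians, with the filter dropped or raised to the 60th percentile, with a mean-variance trend (plain or robust), with replicate number in the model, with probe sets of a gene averaged, and with each array dropped in turn. Figures were drawn with matplotlib 3.10.9.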

Additional observations from a re-analysis of the deposited data

How the results depend on the processing

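Among the alternatives that kept all 4 arrays, Gjb5, Epcam, Grhl2 and Tjp3 were called in 11 of 11, Cxadr and Cgn in 10, Tjp1 in 9 and Gja1 in 7. No called member turned its direction under any of the 15 alternatives. When 1 of the 4 arrays was dropped, limma called 0 genes in all, 0 members (0 higher, 0 lower), 0 of their probe sets and 0 of the further genes, while the members' median ran from 0.016 (without SOCS3 null replicate 2) to 0.21; the loss of calls follows a fit on fewer arrays. Without the filter on dim probe sets, which tests more genes, 1631 of 18193 genes were called, or 8.96%. With them 4 members (1 higher), 3 member probe sets and 17 of 81 further genes were called. At the 60th percentile 33.1% of 9645 genes were called; 7 members were lower, with Cldn3, Cldn6 and Crb3 added, and 2 claudins were called. Claudins called were 1 with quantile normalization, 1 as the mean of probe sets and 1 with the block. With the replicate number as a block, 1914 genes (15.0%), 7 members (22.6%) and 6 member probe sets were called. Of these members 2 were higher (Gjb5 and Cxadr), and Cgn, Cldn6, Epcam, Grhl2 and Tjp3 were lower. Deviations of same-numbered arrays correlated by -0.12; with the numbers crossed, chosen after seeing the data, 2817 genes, 8 members, 1 claudin and 9 member probe sets were called. Direction turned only for members that were not called. With median centring Cldn9 was at 0.0069, and as the mean of probe sets Mpp5 was at 0.053 and Prkci at -0.10. With 1 array dropped, the change ran from -0.14 to 0.13 for Cldn9, from -0.021 to 0.21 for Cldn15, from -0.23 to 0.55 for Marveld2 and from -0.20 to 0.020 for Mpp5. The cause was not tested. Changes of dim genes depend on the pseudocount, and 8 claudins were too dim to be tested.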
